A study of Mus musculus with 39 samples.

Results

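Of the 39 arrays of mouse subcutaneous adipose tissue, 5 carried transcripts of skeletal muscle at a far higher level than most others, and this group is described here against the 23 arrays with the least. The arrays were chosen by a measured score, the mean level of 12 skeletal muscle genes (Myh1, Myh2, Myh4, Acta1, Ckm, Mb, Atp2a1, Mylpf, Tnnc2, Tnni2, Tnnt3 and Pvalb). A level is the log2 signal of a gene's brightest probe relative to the 75th percentile of its own array, so that 1 unit is a 2-fold difference. Arrays with a score above 4 formed the first group, arrays with a score below 0 formed the second, and the other 11 arrays lay from 0 to 4. Since values of the same arrays chose the groups, every difference between them is given as a description, with no test. Genes outside the score were not used by the rule, but they were measured on the same RNA.

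Skeletal muscle contracts when calcium, released from the sarcoplasmic reticulum through the ryanodine receptor, binds troponin on the thin filament and lets myosin pull on actin. Fast fibres use the myosin heavy chains Myh1, Myh2 and Myh4 and draw on creatine phosphate and glycolysis, whereas slow fibres use Myh7 and rely on myoglobin and mitochondria. Subcutaneous fat lies close to muscle of the body wall and limbs, and fat itself holds smooth muscle of vessels but no striated fibres.

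The mice were C57BL/6J, weaned at 3 to 4 weeks of age and placed on 1 of 5 regimens. LFC mice received a normal diet with 10% of calories from fat (10 arrays), and HFC mice a diet with 60% of calories from fat and more sucrose (11 arrays). HF5, HF20 and HF75 mice received the high-fat diet with 5, 20 or 75 µg of KAL-1, a botanical formulation (6 arrays each). Day 1 had an array for HFC alone, Day 6, Day 10, Day 14 and Week 0 had 1 array each for LFC and HFC, and Week 3, 6, 9, 12, 15 and 18 had 1 array for every regimen. Each labelled time point had 1 array per regimen. By the study's methods weeks are counted from Day 14, so that Day 14 and Week 0 are the same time under separate labels, and their 4 arrays, kept apart here as labelled, all scored below 0. It is not stated in the labels if single animals or pools were hybridised.

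The 5 arrays above 4 were HF75 Week 3 (score 7.47), HFC Day 1 (6.16), HF5 Week 12 (5.44), HFC Day 6 (4.91) and LFC Day 6 (4.31). The nearest array outside was HFC Day 10 at 3.15, followed by HF20 Week 18 at 2.16. At the other threshold, HFC Week 12 lay just below at -0.14 and HFC Week 18 just above at 0.1, and the lowest score was -4.12 on HFC Week 6. All 3 arrays of Day 1 and Day 6 belonged to the high group, and each was scanned alone on a day of its own, so that early time, scan day and muscle transcripts cannot be told apart there. From Week 3 to Week 18, 2 of 30 arrays were in the high group. By regimen the high group held 2 of 11 HFC arrays, 1 of 10 LFC, 1 of 6 HF5, 0 of 6 HF20 and 1 of 6 HF75 arrays.

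**Figure D1:**
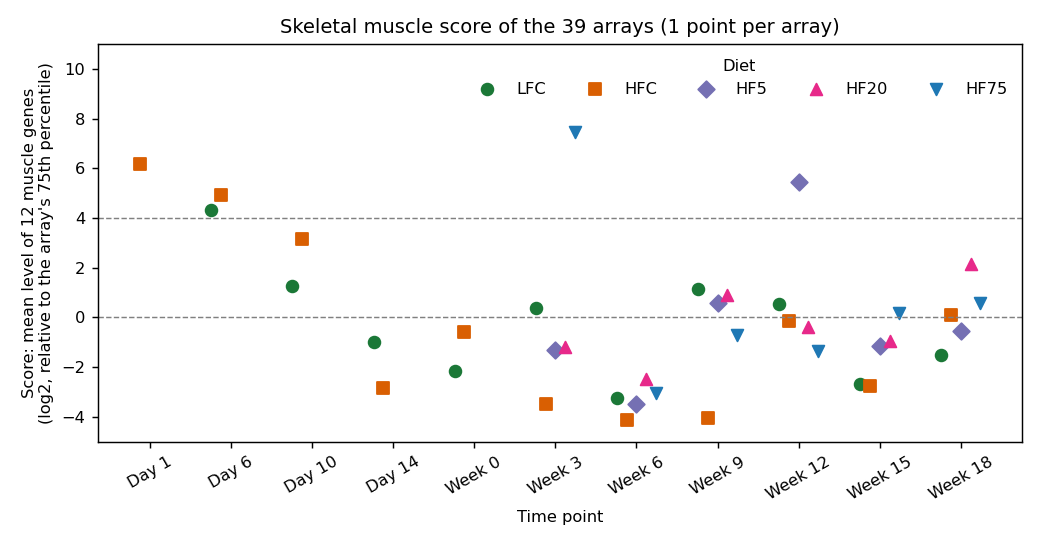
Skeletal muscle score of each array (vertical axis, log2 relative to the 75th percentile of the array) by time point and regimen, with dashed lines at the thresholds of 0 and 4. The 3 arrays of Day 1 and Day 6, the HF75 array of Week 3 and the array labelled HF5 at Week 12 lie above 4, and all 5 arrays of Week 6 lie below 0.

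Some limits of these arrays bear on all that follows. The array labelled HF5 Week 12 is of uncertain regimen. Its title has the letter B after the week where those of the other high-fat arrays of that week have S, and the labels do not explain either letter, although they give the same tissue for all. The deposited ratios of HF5 Week 12 to LFC followed the array labelled HF20 Week 12 (Pearson's r over probes 0.999, against 0.663 for its own), and those of HF20 Week 12 followed the array labelled HF5 (0.999 against 0.666). Its place among the high arrays rests on its own values and does not depend on the label. On HFC Day 1 the spots of Myh1 and Pvalb had outlier flags and were left out, and with them the score was still above 4. The scanner was saturated by 11 of the 12 score genes on HF75 Week 3 and by 3 on LFC Day 6. It was saturated by none on the low arrays, so that differences of the brightest genes are lower limits. A saturated level is also tied to the 75th percentile of its own array, from 338.9 on HF75 Week 3 to 868.4 on HFC Day 6. Saturated levels therefore cannot be ranked over the 5 high arrays, and they enter the scores. Spots well above background made up 49.3% to 82.1% (median 66.3%) of the high arrays and 54.2% to 87.8% (median 65.3%) of the low arrays. The 87.8% was on HF20 Week 15, where 4936 spots had an outlier flag, against a median of 39 over the low arrays. Its mean was the highest of the low arrays in several gene lists below, among them sarcomere (-1.54), calcium release (-2.64) and tendon (-2.11). Upper ends of low ranges can thus rest on this array, and only high arrays were left out in turn.

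The score genes themselves, which chose the arrays, were spread unevenly over the 5 arrays. Myh4, the heavy chain of the fastest fibres, was saturated on all 5, so that its order over them is not informative. It lay at 7.42 on HF75 Week 3, 6.27 on HFC Day 1, 6.6 on HF5 Week 12 and 6.25 on both Day 6 arrays. On the low arrays Myh4 ran from -7.67 to 0.62, with a median of -1.04. The group means were 6.56 and -2.32, and the high arrays were at least 453-fold higher. Ckm, the creatine kinase of muscle, lay at 7.93 on HF75 Week 3 and 6.32 on HFC Day 1, but at 5.69 on HF5 Week 12, 3.75 on HFC Day 6 and 2.81 on LFC Day 6, against -8.16 to -2.12 (median -4.56) on the low arrays. Mb, the oxygen store myoglobin, showed the same order for the first arrays, with 7.83, 6.09 and 3.33. It stood at 1.58 on HFC Day 6 and 2.13 on LFC Day 6. With 11 score genes saturated on HF75 Week 3 and 9 on HFC Day 1, the order of these arrays is not firm. The myosin heavy chain genes are near-identical in sequence, and whether their probes share target was not tested.

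Outside the score, 449 genes were higher on each of the 5 high arrays than on any low array, and 69 genes were lower. These counts rest heavily on HF5 Week 12. Without it 1415 genes were higher, score genes included, and 852 were lower. Together with the 12 score genes, 461 of the 22417 genes that passed the filter were higher without overlap, which is 2.06%, and the 69 lower genes were 0.308%. The filter asked for a signal well above background on at least 5 of these 28 arrays. Of the 449 genes, 64 were in the 9 muscle lists examined and 378 were in no list. Of 139 muscle list genes outside the score, 133 passed the filter, and 64 of these (48.1%) were higher without overlap, against the 2.06% of all genes. None of the 133 was lower without overlap, and 49 of the 139 were well above background on all 23 low arrays too. In whole tissue, fewer cells of a type and less RNA per cell cannot be told apart.

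Among the 20 genes with the widest mean difference was Trdn, which encodes triadin, an anchor of the calcium release channel. Trdn lay at 7.35 on HF75 Week 3, 6.3 on HFC Day 1, 4.55 on HF5 Week 12, 3.13 on HFC Day 6 and 1.25 on LFC Day 6. The low arrays lay between -8.55 and -3.75 (median -6.38), with a signal well above background on 7 of the 23. The means were 4.52 ± 2.44 (SD, n = 5) and -6.29 ± 1.64 (SD, n = 23), a difference of 10.81, with a wide gap between the lowest high and the highest low array. Ckmt2, the creatine kinase of muscle mitochondria, followed at 7.46, 6.26, 4.32, 4.27 and 1.97 in the same order of arrays, against -8.49 to -2.19 (mean difference 10.8). Myot, myotilin of the Z disc, lay at 7.55, 6.3, 3.95, 3.28 and 1.11, against -8.82 to -2.37 (mean difference 10.63). In each of these genes LFC Day 6 was the lowest of the high arrays.

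Next came Cmya3 (mean difference 10.12) and Xirp2 (8.87), which are array names of 1 gene, Xirp2, an actin-binding protein of the Z disc and intercalated disc, so that the 20 names stand for 19 genes. Klhl31 (9.73), Rpl3l (9.49), a ribosomal protein variant of striated muscle, and Fitm1 (9.29), a fat storage protein of muscle, were among them as well. Itgb1bp2, melusin, was not well above background on any low array, and its level on the high arrays (0.16 to 5.13) was at least 500-fold higher. The remaining names were Myoz1 (9.46), Apobec2 (9.39), Gm14492 (9.05), Myo18b (9.03), Myom2 (9), Ampd1 (9), Actn3 (8.88), Trim63 (8.8), Mybpc2 (8.7), Smpx (8.64) and Casq1 (8.5). Of the 20 names, 13 belonged to a muscle list. Near background the size of these differences depended on the background correction, and with normexp in place of the processed signal Trdn differed by 7.06, Ckmt2 by 7.38, Fitm1 by 4.67 and Xirp2 by 4.47. The order changed too, with Mybpc2 (7.57), Myom2 (7.56) and Actn3 (7.39) first, so that ranks within the 20 are not firm.

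**Figure D2:**
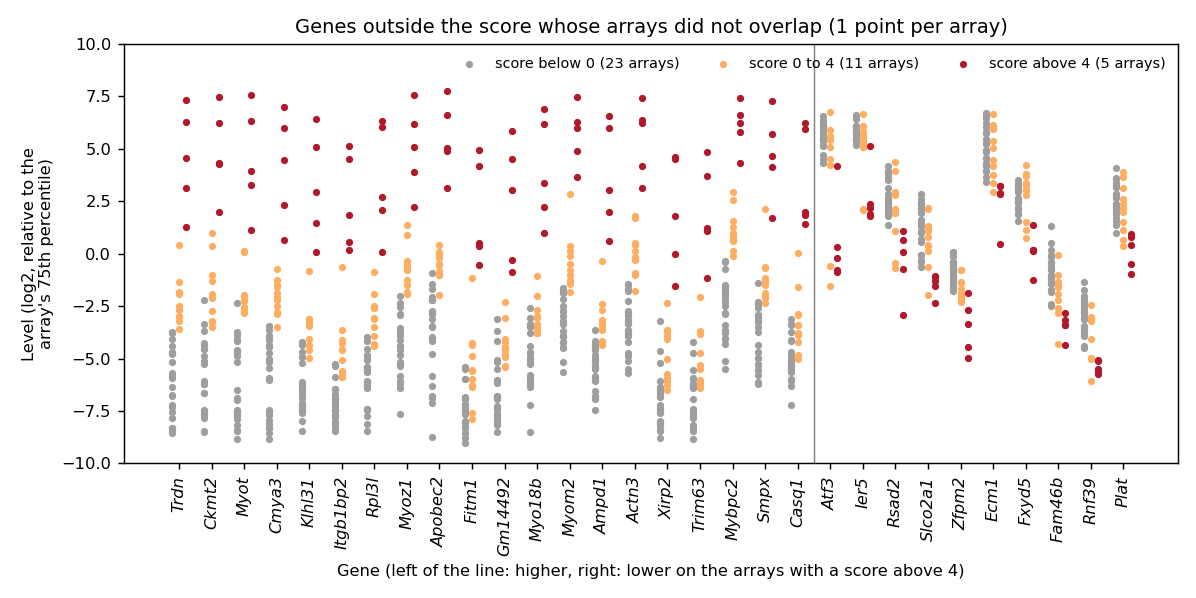
Levels (vertical axis, log2 relative to the 75th percentile of the array) of the 20 gene names with the widest higher and the 10 with the widest lower mean difference among genes outside the score whose arrays did not overlap, with 1 point per array. The arrays with a score from 0 to 4 (middle column of each gene) reach above the arrays below 0 in many of the muscle genes, and in Atf3 they fall into high and low arrays.

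Promoters of such genes were looked at for sites of the factors known to act in muscle. In the RefSeq table of build GRCm38.p6, 214 of the 449 genes had a promoter, as had 11 of the 19 named genes. In the 250 bases before the start, both strands were searched for the E-box CANNTG bound by MyoD-type factors, for MCAT (GGAATG) bound by TEAD factors, and for the MEF2 site and the CArG box. Among the 214 promoters, 70.1% held an E-box, 12.1% MCAT, 6.54% a MEF2 site and 1.87% a CArG box. Among 56 promoters of the 69 lower genes the shares were 82.1%, 12.5%, 3.57% and 3.57%, so that only the MEF2 site was more frequent in the higher genes. Among 13368 promoters of all genes tested these shares were 60.2%, 11.1%, 2.06% and 1.32%, and among all 32851 windows of this length 66.2%, 12.6%, 2.92% and 1.47%. Matches are a description of the letters, and the shares were not tested. The promoters of the 3 highest named genes with a single window and a match are shown, with every match in capitals and 5′ to 3′ on the strand of the gene, for Ckmt2 at chr13:91876886-91877135 (minus strand), for Xirp2 at chr2:67445752-67446001 (plus strand) and for Apobec2 at chr17:48432729-48432978 (minus strand).
Ckmt2: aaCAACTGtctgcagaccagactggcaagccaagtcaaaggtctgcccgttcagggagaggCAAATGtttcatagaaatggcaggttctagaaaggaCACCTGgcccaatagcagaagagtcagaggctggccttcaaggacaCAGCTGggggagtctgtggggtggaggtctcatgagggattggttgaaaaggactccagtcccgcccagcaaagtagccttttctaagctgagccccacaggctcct
Xirp2: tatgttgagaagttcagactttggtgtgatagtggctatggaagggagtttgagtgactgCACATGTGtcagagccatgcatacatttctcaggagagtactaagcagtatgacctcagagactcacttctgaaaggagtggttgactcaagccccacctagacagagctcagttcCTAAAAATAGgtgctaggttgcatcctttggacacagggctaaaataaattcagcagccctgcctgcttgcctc
Apobec2: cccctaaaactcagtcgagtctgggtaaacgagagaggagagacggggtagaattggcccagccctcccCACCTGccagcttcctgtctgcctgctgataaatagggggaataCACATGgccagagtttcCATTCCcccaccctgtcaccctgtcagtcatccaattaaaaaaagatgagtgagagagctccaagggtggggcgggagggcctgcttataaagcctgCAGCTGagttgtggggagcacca
The Ckmt2 promoter held 4 matches to the E-box, that of Xirp2 held 2 (overlapping) and 1 to the MEF2 site, and that of Apobec2 held 3 to the E-box and 1 to MCAT.

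Genes of the sarcomere were high as a group. Of 38 on the array, all passed the filter, 26 were higher without overlap and the median difference was 7.05 (4.05 with normexp), against 0.03 for all genes tested. Neb, the nebulin ruler of the thin filament, had no value on HFC Day 1, where its spot had an outlier flag, and lay from -0.08 (LFC Day 6) to 7.5 (HF75 Week 3) on the other 4 high arrays and from -5.3 to -2.83 on the low arrays. Not every member was higher. Tpm1, a tropomyosin that smooth muscle also uses, was at 1.16 to 2.42 on the high and 1.74 to 5.19 on the low arrays (mean difference -1.83). Unc45b, a myosin chaperone, differed by -0.25 and Tpm2, another tropomyosin, by 0.69.

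Fast fibre genes separated the arrays in full and slow fibre genes in part. Since most genes of the score are fast fibre genes, a closer relation of other fast fibre genes to it is built into the choice of arrays, and the difference between the lists was not tested. All 8 fast fibre genes outside the score (Myoz1, Actn3, Mybpc2, Casq1, Pgam2, Tmod4, Eno3 and Myl1) were higher without overlap, with a median difference of 8.32. Actn3, the alpha-actinin of fast fibres, lay at 7.43, 6.24, 6.39, 4.19 and 3.13 on HF75 Week 3, HFC Day 1, HF5 Week 12, HFC Day 6 and LFC Day 6, against -5.7 to -1.43 on the low arrays. Of 12 slow fibre genes on the array, 11 passed the filter and 3 (Csrp3, Myoz2 and Myl3) were higher without overlap, with a median difference of 3.97 (6.16 over Week 3 to Week 18 alone). Myh7, the slow heavy chain, lay at 7.58, 4.57, 3.25, -2.43 and 2.32 in the same order, against -7.61 to -1.22 on the low arrays. On HFC Day 6 it thus fell inside the range of the low arrays, although its mean difference was 8.57. Taken against the median of the low arrays, the mean level of the fast list rose by 9.62 on HF75 Week 3 and 5.61 on LFC Day 6, and that of the slow list by 7.23 on HF75 Week 3, 5.36 on HFC Day 1, 3.39 on HF5 Week 12, 2.99 on LFC Day 6 and 2.15 on HFC Day 6.

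Of 22 genes of calcium release and excitation on the array, 21 passed the filter and 15 were higher without overlap (median difference 6.03). Ryr1, the calcium release channel, lay from 1.21 to 7.42 on the high and from -6.14 to -1.8 on the low arrays. Cacna1s, the voltage sensor of the T-tubule, lay from 2.21 to 7.4 against -4.64 to 0.66. Sln, sarcolipin, an inhibitor of the calcium pump, was at 5.21 on HF75 Week 3, 2.65 on HFC Day 1, 2.61 on HFC Day 6, -0.16 on LFC Day 6 and -1.62 on HF5 Week 12, against a highest low value of -2.14. Scn4a, the sodium channel of muscle, overlapped (-2.55 to 0.89 against -4.74 to -2.01).

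Of 24 genes of muscle energy supply, all passed the filter and 14 were higher without overlap (median difference 5.43). Ampd1, the AMP deaminase of muscle, lay from 0.61 to 6.58 against -7.46 to -3.63, and Pygm, which breaks down glycogen, from -0.7 to 6.06 against -5.29 to -2.32. Aldoa, used by most cells, was saturated on all 5 high and on 19 low arrays, so that its levels could not be compared. Subunits of oxidative phosphorylation, which all cells with mitochondria express, had a median difference of 2.31 over 26 genes, of which 4 were higher without overlap. Their mean level on HF5 Week 12 was 4.58, below the 5.01 of the highest low array, and on the other 4 high arrays it was 5.74 to 6.83. Without HF5 Week 12, 21 of the 26 were higher without overlap, where 6.31% of all genes were.

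Myogenic regulators were among the higher genes. Of 17 on the array, 14 passed the filter and 5 (Myf6, Myog, Vgll2, Ankrd2 and Ankrd23) were higher without overlap. Myf6, the regulator of mature fibres, lay at 4.15, 3.4, 1.39, -0.6 and -1.93 from HF75 Week 3 to LFC Day 6 in the order used above, against -7.58 to -4.18 on the low arrays. Myod1, which commits cells to muscle, overlapped by a small margin (-4.21 to 1.05 against -7.94 to -3.44), and Pax7, which marks satellite cells, lay at -5.72 to -1.65 against -8.46 to -2.22. Of 9 genes of development and regeneration, 3 (Myog, Myh8 and Cdh15) were higher without overlap. Myh3, the embryonic heavy chain, was not among them, at -4.01 to 1.36 on the high and -6.37 to 4.78 on the low arrays. Myh8, the perinatal heavy chain, was saturated on all 5 high arrays and at least 57.1-fold higher.

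Of 10 genes of the neuromuscular junction, 9 passed the filter and none was higher without overlap (median difference 1.99, and 0.45 with normexp). Rapsn, which clusters acetylcholine receptors, and Chrna1, a receptor subunit, had the widest differences (4.17 and 4.06). The mean level of the list rose by 3.94 on HFC Day 1 and 3.03 on HF75 Week 3 and by 0.73 to 1.33 on the other 3 arrays. Of 10 genes of the dystrophin complex, 1 was higher without overlap. A mean at least 2-fold higher was found for 6 of them, and for 3894 of the 22417 genes tested. The median difference was 1.44, while Dmd, dystrophin, differed by 0.38. Of 11 genes listed as myokines, the factors that muscle secretes, Mstn alone was higher without overlap, with -4.08 to 2.3 against -8.84 to -4.29, and 6 had a mean at least 2-fold lower, as had 3950 of the 22417 genes tested. Among the latter, Il6, a cytokine that many cells induce, lay at -7.14 to -6.05 on 4 high arrays, where it was not well above background, and at 4.59 on HF5 Week 12, against 2.03 to 6.5 on the low arrays.

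**Figure D3:**
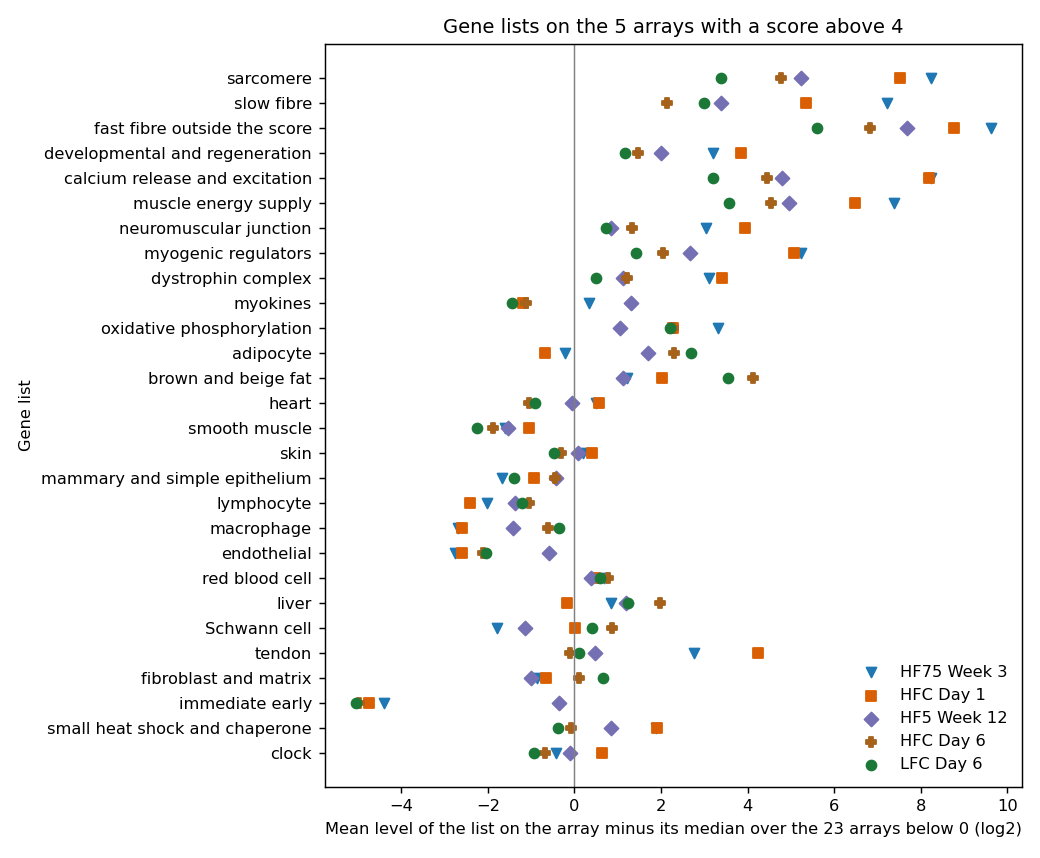
Mean level of each gene list on the 5 arrays with a score above 4, minus the median of that mean over the 23 arrays below 0 (horizontal axis, log2), with 1 symbol per array. The 9 muscle lists at the top lie to the right of 0 on all 5 arrays, and the immediate early list lies from -5.04 to -4.39 on 4 arrays and at -0.36 on HF5 Week 12.

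At Week 3 and Week 12 a high array could be set against low arrays of the same time point. At Week 3 the HF75 array was compared with HFC, HF5 and HF20, and at Week 12 the array labelled HF5 with HFC, HF20 and HF75. Of the 133 muscle genes, 122 (91.7%) were above all 3 low arrays at Week 3, where 38.3% of all genes were, and 107 (80.5%) at Week 12, where 27.6% were. Trdn differed by 14.57 at Week 3 and 9.52 at Week 12, and Actn3 by 11.72 and 9.07. The size of the Trdn differences depends on the background correction, since its signal was near background on most low arrays. The slow fibre list had a median difference of 8.26 at Week 3 and 2.76 at Week 12, and the fast list of 10.68 and 7.37. Arrays of these weeks were scanned on 3 of the 14 scan days, and 2 scan days held arrays of both kinds. Within the scan day of Week 3 the values were those above, and within that of Week 12, which held 1 high and 1 low array, the median difference was 7.01 for the fast list, 4.45 for the sarcomere list and 0.52 for the slow list.

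**Figure D4:**
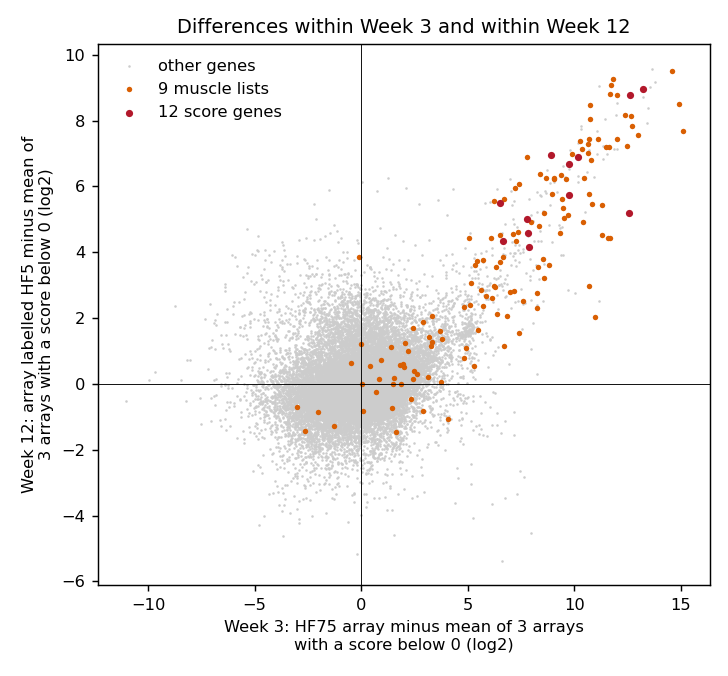
Difference of the high array from the mean of the 3 low arrays at Week 3 (horizontal axis, log2) and at Week 12 (vertical axis, log2), with 1 point per gene that passed the filter. The 12 score genes and most genes of the 9 muscle lists lie to the upper right, and the other genes form a broad cloud on both sides of 0, wider at Week 3 than at Week 12.

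Of the 69 genes that were lower without overlap, Atf3, a stress-induced transcription factor, had the widest difference (-5.1). Atf3 lay at -0.22 on HF75 Week 3, 0.31 on HFC Day 1, 4.16 on HF5 Week 12, -0.8 on HFC Day 6 and -0.87 on LFC Day 6, against 4.34 to 6.56 on the low arrays. HF5 Week 12 thus missed the low arrays by a small margin, while the other 4 were far lower. Ier5, another early response gene (-3.17), was at 1.8 to 2.39 on the same 4 arrays and 5.15 on HF5 Week 12. The others of the 10 widest were Rsad2, an antiviral interferon target (-3.12), Slco2a1, a prostaglandin transporter (-2.85), Zfpm2, a cofactor of GATA factors (-2.67), Ecm1, an extracellular matrix protein (-2.62), Fxyd5, a regulator of the sodium pump (-2.53), Fam46b (-2.52), Rnf39 (-2.47) and Plat, tissue plasminogen activator (-2.4). Rnf39 was at -5.74 to -5.06 on all 5 high arrays and at -4.52 to -1.37 on the low arrays, and its difference was -1.17 with normexp.

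Immediate early genes, which cells switch on within minutes of a stimulus, split the arrays in a way that was related to the muscle score but was not the same. Of 15 on the array, Atf3 alone was lower without overlap, and the median difference was -3.91. Fos, a subunit of AP-1, was at -3.53 to -1.79 on 4 high arrays and 4.47 on HF5 Week 12, against 2.88 to 5.89 on the low arrays. Without HF5 Week 12, 13 of the 15 were lower without overlap, where 3.8% of all genes were. The mean level of the list was below 0 on 6 of the 39 arrays and at 2.96 or more on the other 33. Those 6 were 4 of the 5 high arrays and, from the arrays between the thresholds, HFC Day 10 and LFC Week 12. Whether the low immediate early genes have a part in the differences of other genes on these 4 arrays was not tested.

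**Figure D5:**
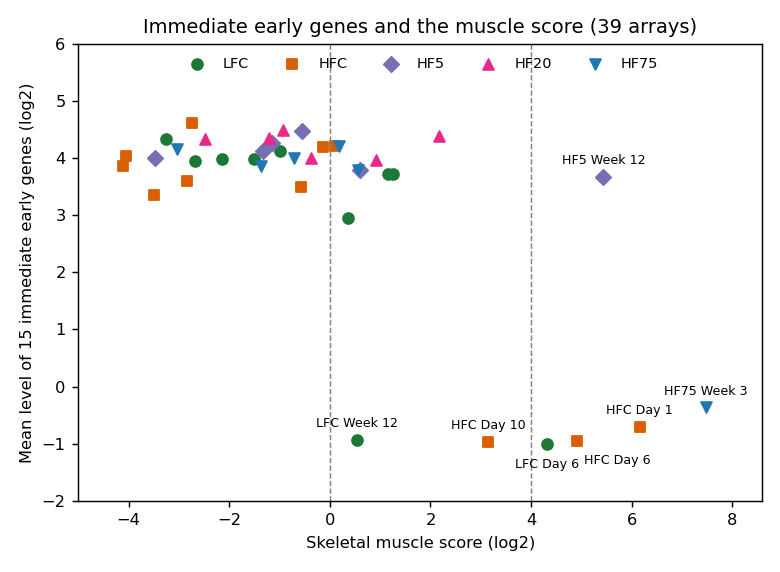
Mean level of 15 immediate early genes (vertical axis, log2) against the skeletal muscle score (horizontal axis, log2) for the 39 arrays, with dashed lines at the thresholds of 0 and 4. Of the 5 arrays above 4, 4 lie in the group of 6 arrays with a mean below 0, and the array labelled HF5 Week 12 lies with the other 33.

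Fat cell markers were present on all 5 high arrays. Adipoq, adiponectin, lay at 4.07 on HF75 Week 3, 1.75 on HFC Day 1, 6.74 on HF5 Week 12, 6.13 on HFC Day 6 and 6.39 on LFC Day 6, inside or just above the 1.12 to 6.63 of the low arrays. Plin1, which coats lipid droplets, lay from 1.78 to 6.25 against -0.01 to 6.06, and Lep, leptin, from -2.57 to 2.19 against -4.35 to 3.09. The median difference of 29 adipocyte genes was 1.05. It was 0.5 to 1.54 with 1 high array left out and 0.18 within Week 3 and Week 12. None of the 29 was without overlap in either direction. Of them 16 had a mean at least 2-fold higher, as had 3894 of the 22417 genes tested. Their mean level rose by 2.31 on HFC Day 6 and 2.69 on LFC Day 6 and stood at -0.21 on HF75 Week 3 and -0.68 on HFC Day 1 relative to the low median. Ucp1, which uncouples the mitochondria of brown and beige fat, was at -3.36 on HF75 Week 3, 2.05 on HFC Day 1 and -0.75 on HF5 Week 12. It was at 6.48 on HFC Day 6 and 6.06 on LFC Day 6, against -3.91 to 6.51 on the low arrays. The 6.51 was on HF20 Week 12 alone, and the next low array was HFC Week 3 at 3.37. The brown and beige list had a median difference of 2.58 (0.72 with normexp and 0.76 over Week 3 to Week 18), which turned to -0.42 within Week 3 and Week 12. Over the 5 high arrays, 8 of 10 genes were at least 2-fold higher in the mean, and its mean level rose by 4.13 on HFC Day 6, 3.55 on LFC Day 6 and 1.12 to 2.03 on the other 3 arrays. Cpt1b, the carnitine transferase that muscle shares with brown fat, was its 1 gene that was higher without overlap (1.48 to 5.05 against -2.87 to 1.24).

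The heart list had a median difference of -1.32, which was -0.31 over Week 3 to Week 18 alone, -0.69 with normexp and 0.08 within Week 12. Of 11 heart genes, 9 passed the filter and none was without overlap. Nppa (-5.06 to -4.4 against -6.04 to -1.85) and Nppb (-5.81 to -4.63 against -7.89 to -4.21) were low on all 5 high arrays, while Myh6, also found in some skeletal fibres, was at -6.62 to 3.83 against -8.82 to -4.15. The mean level of the heart list was -5.61 to -4 on the high and -6.38 to -3.1 on the low arrays. In the smooth muscle list the median difference was -2.05, and Acta2 (-1.99), Myh11 (-2.84) and Cnn1 (-3.47) all had a lower mean, with ranges that overlapped. The smooth muscle list mean was 0.71 to 1.89 on the high and 0.56 to 3.96 on the low arrays. Without HF5 Week 12, 1 of 10 smooth muscle genes was lower without overlap, where 3.8% of all genes were. Of 8 tendon genes none was without overlap, the median difference was 1.53 (0.42 with normexp and 0.87 without HFC Day 1), and 5 had a mean at least 2-fold higher, as had 3894 of the 22417 genes tested. Over Week 3 to Week 18 alone, 2 tendon genes, 1 heart gene and 1 smooth muscle gene were higher without overlap, where 4.33% of all genes were, and 1 heart gene was lower, where 2.07% were. Scx, a tendon regulator, lay at -2.59 to 1.88 against -4.04 to -1.81. The tendon list mean was 0.51 on HFC Day 1 and -0.98 on HF75 Week 3. These lay above the -2.11 of HF20 Week 15, the highest low array, and the other 3 high arrays lay at -3.84 to -3.26. Tnmd lay at -5.76 to 0.39 against -8.82 to -4.12, and Fmod at -3.12 to 2.24 against -4.57 to 0.49.

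Over the 5 high arrays, none of the genes of vessels, blood and epithelium in these lists was without overlap. Without HF5 Week 12, 5 of 12 endothelial genes (41.7%), 1 lymphocyte gene and 1 macrophage gene were lower without overlap, where 3.8% of all genes were. Over Week 3 to Week 18 alone, 0 of 12 endothelial genes, 1 lymphocyte gene and 2 macrophage genes were lower, where 2.07% of all genes were. All 12 endothelial genes had a mean at least 2-fold lower on the high arrays, as had 3950 of the 22417 genes tested, among them Pecam1 (-2.06), Cdh5 (-1.91) and Kdr (-1.24), and the list mean was 1.42 to 3.6 against 2.19 to 4.93. The lymphocyte list mean was -5.21 to -3.86 against -5.04 to 0.07, and the median difference was -1.97 (-1.08 with normexp), with 13 of 17 genes at least 2-fold lower and 1 at least 2-fold higher. Of its defining markers Cd3g differed by -1.26, whereas Cd3e (0.87) and Cd79a (0.55) went the other way. The macrophage list mean was -1.78 to 0.57 against -0.72 to 2.06, with differences of -1.69 for Cd68, -0.96 for Emr1 and -2.79 for Itgax. The mean of the epithelial list was -5.26 to -4.02 against -5.57 to -1.65 (Krt8 -2.24, Krt18 -2.66, Krt19 -1.54), and that of the skin list -5.05 to -4.18 against -5.54 to -2.8 (Krt5 -0.63, Krt14 -0.94, and Krt1 below the filter). Red blood cell genes lay inside the low range (Hba-a1 0.12, Hbb-b1 0.37), as did liver genes (Alb 2.04, Apoa1 -0.24, Apoa2 0) and the Schwann cell list, whose mean was -2.16 to 0.5 against -2.7 to 1.78 (Mbp -0.41). The median difference of the Schwann cell list was -0.37, and it was 0.11 without HF5 Week 12, -0.04 without HF75 Week 3, -1.54 over Week 3 to Week 18 and -2.54 within Week 3 and Week 12. In the fibroblast and matrix list the median difference was -0.29. It was -0.67 without LFC Day 6 and -0.14 without HF5 Week 12. Over Week 3 to Week 18 alone it was -1.11, and within Week 3 and Week 12 it was -0.76. Col1a1 differed by 0.32 (without HFC Day 1, where it had no value), Col1a2 by -0.27 and Col3a1 by -0.12. Of 12 chaperones, Hspb3, a small heat shock protein of muscle, was higher without overlap (-1.75 to 4.19 against -8.12 to -4.56) and Dnajb1, a heat-induced chaperone, was lower (2.28 to 4.34 against 4.42 to 6.28). The median difference over 10 clock genes was -0.33 (-0.45 to -0.15 with 1 high array left out), with no gene without overlap. Whether the amounts of these other cell types have a part in the muscle differences was not tested.

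The 11 arrays between the thresholds, which entered neither group, mostly lay above the low median in the muscle genes without overlap. HFC Day 10 was the highest of the 11 in 19 of the 20 named genes. Of the 64 muscle genes without overlap, 62 had a median over the 11 arrays above the median of the low arrays, and 14 had one above every low array. Trdn, for example, ran from -3.57 to 0.4 on these arrays (median -2.47), and Actn3 from -1.77 to 1.82 (median -0.17).

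The comparisons of regimens, whose arrays were set by the labels, were fitted with and without the 5 arrays to see how muscle genes moved in them. In HFC against LFC (20 arrays, time point as a block), limma called 0 of 19870 genes after Benjamini-Hochberg adjustment (0%), and 1165 (5.86%) had an unadjusted p under 0.05. Of 129 muscle genes tested there, score genes included, 6 (4.65%) had an unadjusted p under 0.05, and 8 (6.2%) did so without the pair of Day 6 arrays, where 6.33% of all genes did. The smallest p was that of Scn4a (-0.68, SE 0.25, unadjusted p 0.0171, limma adjusted p 0.803), followed by Tmem8c (-0.64) and Sgcd (1.1). At Day 6, where both arrays were high, HFC and LFC scored 4.91 and 4.31.

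For the KAL-1 doses, which shared the 6 HFC arrays of Week 3 to Week 18, limma again called 0 of 21010 genes (0%) in each comparison. For HF20 this depended on the background correction, since normexp gave 7990 genes after adjustment, 19 of them muscle genes, with a median shift of all genes of 0.35. Unadjusted p under 0.05 was found for 287 genes (1.37%) in HF5, 886 (4.22%) in HF20 and 1058 (5.04%) in HF75. Muscle genes made up 7 of 136 tested (5.15%) in HF5, 10 (7.35%) in HF20 and 28 (20.6%) in HF75, and all 28 of the latter were higher than in HFC. Since the high arrays are known by their muscle score, which includes some of the muscle genes tested, leaving them out builds a smaller spread of muscle genes into the fit. Counts of muscle genes without these arrays are therefore a description. Without the high arrays of Week 3 and Week 12 the counts became 3 (2.21%) in HF5, 51 (37.5%) in HF20 and 14 (10.3%) in HF75, where 1.48%, 5.52% and 4.83% of all genes were below 0.05. HF20 held no high array, and its estimates for Tcap (2.99) and Myh4 (3.24) were the same with and without them, while the SE of Tcap fell from 1.24 to 0.75. The smallest p among muscle genes for HF75 was that of Mef2c (1.28, SE 0.44, unadjusted p 0.00724, limma adjusted p 0.865), and Myh4 differed by 4.41 (SE 1.51, limma adjusted p 0.865) and by 3.22 (SE 1.35) without the high arrays. For HF5, Myh4 differed by 3.54 (SE 1.51), Tnnt3 by 3.47 and Myh8 by 2.26 (limma adjusted p 1 for each). For HF20 without the high arrays, Xirp2 differed by 2.73 (SE 0.61), Myf6 by 1.8 and Tcap by 2.99. When HF5 and HF20 traded their arrays of Week 12, in the way of the deposited ratios, muscle genes with an unadjusted p under 0.05 numbered 0 of 136 in HF5 and 34 (25%) in HF20, where 1.3% and 4.67% of all genes were below 0.05. With that exchange and without the high arrays they numbered 7 (5.15%) and 56 (41.2%), where 1.87% and 4.76% of all genes were.

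For the change per week over the 30 arrays of Week 3 to Week 18, limma called 20 of 21010 genes (0.0952%), of which 0 were muscle genes, and 3266 (15.5%) had an unadjusted p under 0.05. Of 136 muscle genes, 5 (3.68%) had an unadjusted p under 0.05 and none of these rose, the smallest p being that of Sgcd (-0.09 per week, SE 0.04, limma adjusted p 0.228). Without the 2 high arrays, left out for their muscle score as above, the count was 34 (25%), where 14.6% of all genes were below 0.05, and 32 of the 34 were positive. Pdk4, a kinase that restrains glucose oxidation, changed by 0.1 per week there (SE 0.03). The count after adjustment was 22 without these arrays, and 11 of the 20 genes were among the 22. It was 12 with the scan day as block, 3 with no filter, 1 with normexp and 0 without arrays scoring 0 or more. Whether the muscle genes differ in their change with and without the high arrays was not tested.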

How the data were processed

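RNA of subcutaneous adipose tissue was labelled with Cy3 and hybridised to 39 Agilent 1-colour arrays with 43803 gene spots, 40628 probes and 29411 gene names. The authors deposited scanner output from Agilent Feature Extraction, whose processed signal is a background-subtracted intensity on a linear scale, and mean and background intensities were used for an alternative. The authors also deposited a series table of log2 ratios, taken against LFC at each time point, and these were used for the check of labels alone. No columns of other series were present (0).

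Intensities were averaged over the spots of a probe, without spots flagged as outliers (17 to 4936 per array), and log2 values were taken relative to the 75th percentile of each array, which ran from an intensity of 107.9 to 1285 on the low arrays and from 338.9 to 868.4 on the high arrays. The number of arrays limits the precision. The probe with the highest mean stood for a gene. The score, its thresholds and the gene lists were chosen with earlier results of these data known. For the high and low groups, genes well above background on at least 5 of 28 arrays were described by means, ranges and overlap. Named were the score genes, the 20 widest higher and 10 widest lower mean differences without overlap outside the score, list members with the widest and narrowest differences, the first 3 markers of other cell types, and muscle genes with the smallest p. Fold values that start with "at least" set the mean of the bright group against the higher of the dim probe's own signal and the lowest signal well above background on each array. Regimens were compared with limma 3.58.1 in R 4.3.3 (genes well above background on at least 10 of 20 or 6 of 30 arrays, time point as a block, and regimen in place of the block for the change per week), with adjusted p under 0.05 as the threshold. P-values measure the spread between arrays that may be of 1 mouse or pools. Scripts were tested on simulated data. Alternatives were normexp (offset 50), quantile normalization, outlier spots kept, other filters, all probes, a score of 4 markers (Ckm, Acta1, Myh4 and Mylpf), left-out arrays, Week 3 to Week 18 alone, values within time points, no block and the scan day as block. The exchange of the Week 12 arrays was added after the data were seen. Some marker and list genes are not reported here.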

Additional observations from a re-analysis of the deposited data

Results flagged for a closer look

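Of 63 sets of 4 to 10 values that were set against Dixon's 95% critical value (the score by regimen, the mean of each list on the 5 arrays above 4 and the named genes on them), 5 exceeded it, and chance gives about 1 in 20. The score of HF75 Week 3 (7.47) was far from that of the other HF75 arrays (next 0.56), which restates the choice of that array by its score. On the 5 high arrays, HF5 Week 12 stood apart in the mean of the immediate early list (3.67, the next at -0.36), in Atf3 (4.16, the next at 0.31) and in Ier5 (5.15, the next at 2.39). HFC Day 1 stood apart with a low level of Ecm1 (0.45, the next at 2.83).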

How the results depend on the processing

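The 5 high arrays were above 4 under every scaling tried, and a score of Ckm, Acta1, Myh4 and Mylpf alone added HFC Day 10 (6 arrays). With normexp, 21 of the 23 low arrays scored below 0. The 461 higher and 69 lower genes without overlap became 465 to 1415 and 77 to 852 when 1 high array was left out, and the largest counts (1415 and 852) were without HF5 Week 12. The higher count was 240 with the score of 4 markers. Over Week 3 to Week 18 alone the counts were 970 and 465, and beyond the 3 low arrays at both Week 3 and Week 12 3048 and 3129, with fewer arrays compared. Over these settings the differences of the 30 named genes moved by more than the spread between arrays in 20 cases. They moved by less in 310, and none changed sign. Most of the 20 cases were with normexp, which moved most of the 20 higher named genes. The list medians moved by more than that spread in 15 cases and by less in 289. The list medians that changed sign were those of Schwann cells without HF5 Week 12 (0.11, a move smaller than the spread between arrays), liver with normexp (-0.58), red blood cell over Week 3 to Week 18 (-0.28) and within time points (-0.67), and brown and beige fat within time points (-0.42), and the cause was not tested. For HF20 against HFC, normexp gave 7990 genes after adjustment in place of 0, with a median shift of all genes of 0.35. For the change per week, 20 genes after adjustment became 0 without arrays scoring 0 or more, 1 with normexp, 3 with no filter and 12 with the scan day as block. Without the replicate block of time point, 0 genes passed adjustment in the 4 regimen comparisons, with 468, 115, 409 and 586 at an unadjusted p under 0.05. In these comparisons the scan day as block gave 2980, 1066, 1471 and 1443 genes at an unadjusted p under 0.05 and again 0 after adjustment. Saturation on the high arrays and signals near background on the low arrays limit the differences of the brightest and dimmest genes.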
